A study of Rattus norvegicus with 19 samples.

Results

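The genes described here encode nuclear subunits of the 5 oxidative phosphorylation complexes, though not every one, with close relatives that share their gene names. Members were all genes whose array probe carried a RefSeq accession for a symbol beginning with Nduf, Uqcr, Atp5, Cox4, Cox5, Cox6, Cox7 or Cox8, or for Sdha to Sdhd, leaving out Cox7a1 and Cox8b. This gave 81 genes of 15168 named genes on the array, and 80 of them passed the filter on dim probes and were tested among 12789 genes. The isoform Cox8c did not pass it. By function, 73 members are subunits of complexes I to V (30 of complex I, 4 of II, 8 of III, 16 of IV with Cox8c, and 15 of V), 6 are complex I assembly factors with the Ndufaf prefix, and 2 are the pseudogene Cox6c-ps1 and the Ndufa10 relative Ndufa10l1.

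The samples were 6 normal glands and 13 carcinomas of the rat mammary gland. The donors were females of an F1 cross between the Sprague-Dawley and Copenhagen strains. Per the labels, the carcinomas were induced by radiation, with gamma rays given to the whole body at 4 Gy and 0.5 Gy per minute when rats were 7 weeks old. The labels also speak of untreated rats without saying which normal glands were irradiated, so tumour and radiation are not separated by this comparison. They do not state that each sample is a different animal, and p-values measure the spread between these samples.

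Oxidative phosphorylation moves electrons from NADH and succinate through complexes I to IV to oxygen, pumps protons across the inner mitochondrial membrane, and lets complex V make ATP from the returning protons. Most subunits are encoded in the nucleus and a few, not described here, in mitochondrial DNA. Catalytic core subunits carry the redox centres or the ATP-making sites, while supernumerary subunits surround them and serve assembly and stability. The gland is a mixture of epithelium and fat, and in such bulk tissue fewer cells of a type and less RNA per cell cannot be told apart.

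Values are log2 intensities with each array's 75th percentile set to 0, so a value of 3 is a signal 3 doublings above that percentile. Before this scaling carcinoma arrays were brighter, with a 75th percentile of 485 to 1428 intensity units against 295.5 to 673 in normal glands, and 12 of 13 carcinoma arrays exceeded every normal gland array. Of all genes, 1244 were higher and 1692 lower in carcinomas by limma at an adjusted p under 0.05 (9.73% and 13.2%), and the median change was 0.01. Another background correction (normexp) gave 930 higher and 5263 lower and moved the median change of all genes to -0.37. The adipocyte list, which holds Adipoq, fell in 13 of 13 tested genes. Of 15 luminal epithelium genes, 4 rose, and the epithelial marker Epcam was well above background on all arrays.

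As a group the members lay lower in carcinomas, with small changes. By limma 25 of 80 fell (31.25%, against 13.2% of all genes tested) and 1 rose (against 9.73% of all genes), while 54 did not pass. The median change of the members was -0.41, and 70 of 80 changes were negative. The 25 falls ranged from -0.58 to -1.24 on the log2 scale, which is 1.49-fold to 2.36-fold lower. In 17 of these 25 genes all 13 carcinomas lay below the normal gland median, and in the other 8 genes 12 did. Groups overlapped in nearly all: only Ndufa10 had every carcinoma below every normal gland, which is 1 of 80 members against 1.93% of all genes. In 0 of 80 members was every carcinoma above every normal gland, against 0.54% of all genes.

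These counts depended on how arrays were put on 1 scale. With quantile normalization 10 members were lower (12.5%, against 11.4% of all genes) and 2 higher (2.5%, against 1559 of 12789 genes). The members' median was then -0.16. The 10 were Ndufa1, Ndufa2, Ndufa10, Ndufb8, Ndufb9, Ndufaf8, Uqcrq, Cox7a2, Cox7a2l and Atp5mg, and the other 15 falls were then between -0.66 (Atp5f1e) and 0.016 (Cox6a1) and did not pass. With normexp 23 members were lower (28.75%), but so were 41.2% of all genes, and the members' median of -0.31 stood 0.06 above that of all genes. From the comparison as reported to normexp, the median of all genes went from 0.01 to -0.37 and that of the members from -0.41 to -0.31. Shares with normexp were not computed for genes as bright as the members. With array brightness as a covariate 0 members passed by limma in either direction, against 1.36% of all genes lower, with 3 lower and 6 higher at an unadjusted p under 0.05. The part of brightness in the falls was not tested further.

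**Figure D1:**
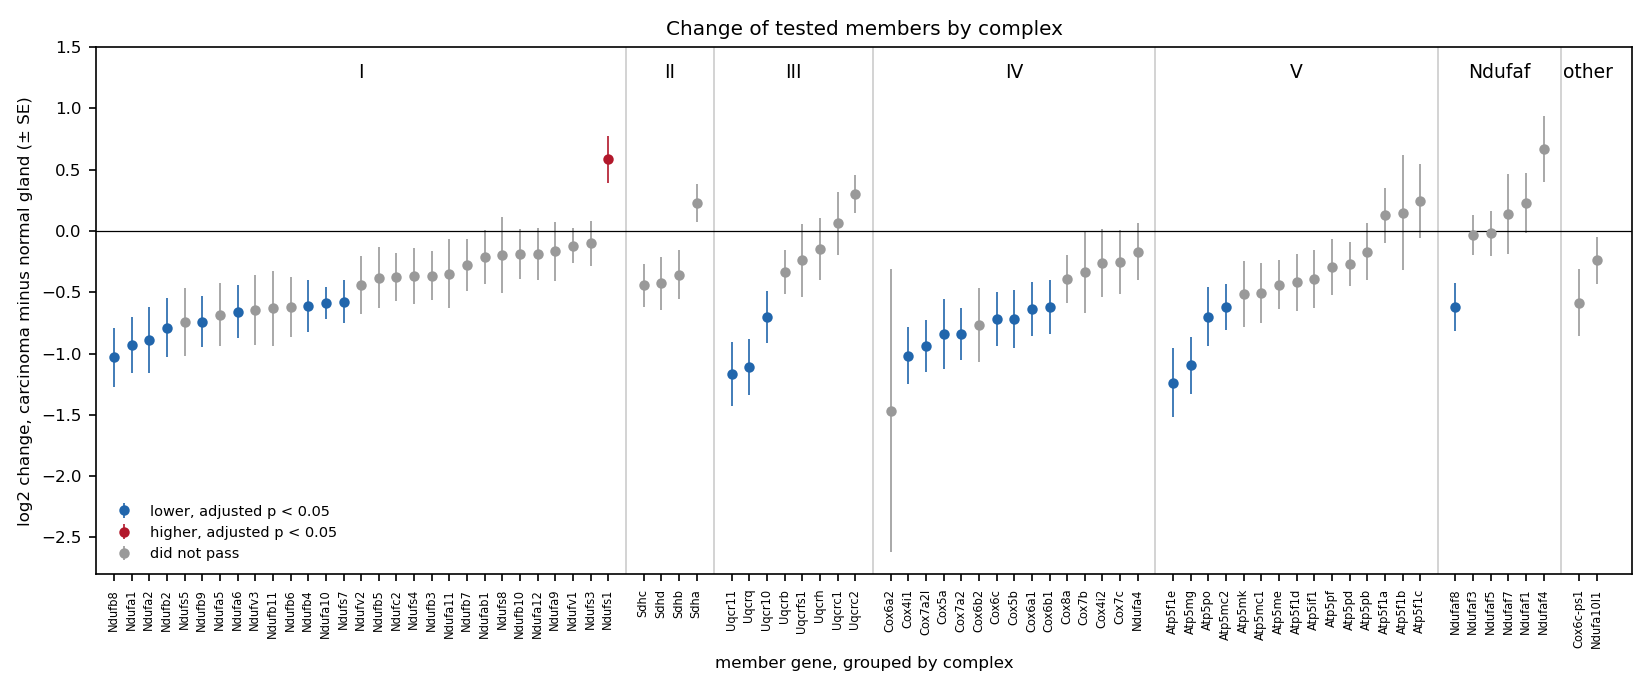
Log2 change (carcinoma minus normal gland, with its standard error) of the tested members but 1, grouped by complex and ordered by size within it. Blue points fell and red points rose at an adjusted p under 0.05 by limma, and grey points did not pass: 25 are blue and 1 is red, and the blue points lie between -0.58 and -1.24.

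Members are bright genes, and bright genes as a whole tended downward. Of all 1480 genes with a mean of at least 2, 22.2% were lower and the median change was -0.22. Of the 58 members at that level, 22 were lower (37.9%) with a median of -0.51, and of the 22 members below it, 3 were lower (13.6%) with a median of -0.23. Among all dimmer genes 12.1% were lower and the median was 0.04. The 1480 genes include the 58 members, which were brighter still, with a median level of 3.77 against 3.02. The levels were thus not fully matched.

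The upstream 250 bases of 3 members are shown because these genes mark the extremes of the data: Ndufa10 separated the groups fully, Atp5f1e had the largest fall, and Ndufs1 was the only member that rose. The sequences are from RefSeq (GRCr8), 5' to 3' on the gene's strand, at chr9:100489265-100489514 (Ndufa10, minus strand), chr3:183680173-183680422 (Atp5f1e, minus strand) and chr9:72073606-72073855 (Ndufs1, minus strand). Capitals mark matches on either strand to short motifs of factors known for driving respiratory chain genes.
Ndufa10: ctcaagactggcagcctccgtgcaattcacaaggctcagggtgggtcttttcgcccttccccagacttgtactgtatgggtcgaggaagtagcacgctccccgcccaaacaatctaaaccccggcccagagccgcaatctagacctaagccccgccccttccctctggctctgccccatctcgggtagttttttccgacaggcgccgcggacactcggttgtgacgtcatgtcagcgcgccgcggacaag
Atp5f1e: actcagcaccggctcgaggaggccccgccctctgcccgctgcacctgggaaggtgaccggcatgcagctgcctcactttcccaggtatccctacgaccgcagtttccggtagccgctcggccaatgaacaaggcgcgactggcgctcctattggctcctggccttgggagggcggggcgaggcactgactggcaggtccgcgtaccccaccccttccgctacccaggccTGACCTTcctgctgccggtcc
Ndufs1: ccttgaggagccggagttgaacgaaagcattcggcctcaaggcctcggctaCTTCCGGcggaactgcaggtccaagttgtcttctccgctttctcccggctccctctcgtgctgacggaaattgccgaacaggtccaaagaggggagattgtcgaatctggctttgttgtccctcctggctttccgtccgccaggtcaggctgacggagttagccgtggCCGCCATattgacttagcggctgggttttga
The letters searched were CCGGAAG for ETS factors such as GABPA, GCATGCG for NRF1, ATGGCGG for YY1 and AAGGTCA for oestrogen-related receptors, on both strands, and no match overlaps another in these windows. Ndufs1 held 1 ETS and 1 YY1 match, Atp5f1e held 1 receptor match, and Ndufa10 held none of these letters. Promoters were matched for 71 of 81 members. The ETS letters stood in 29.6% of them and in 7.27% of all 33469 promoter windows of that length, and the NRF1 letters in 18.3% and 2.93%. The YY1 letters stood in 7.04% and 2.47%. The receptor letters stood in 8.45% and 3.99%. Between the 21 promoters of members that fell and the 49 of members that were tested and did not fall, the ETS letters stood in 8 and 13, the NRF1 letters in 4 and 8, the YY1 letters in 2 and 3 and the receptor letters in 4 and 2, a description without a test.

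Complex I takes electrons from NADH, through a matrix arm with flavin and iron-sulphur clusters and a membrane arm that pumps protons. Of its 30 tested subunits 9 fell (30%, against 13.2% of all genes) and 1 rose (3.33%, against 9.73%). The median change was -0.41. The number of falls was 5 with quantile normalization (11.4% of all genes were then lower) and 3 without normal gland 2 or without normal gland 3. Most of these subunits are supernumerary, and 23 of 30 listed supernumerary genes were on the array. Of these 23, 8 fell (34.8%), all 23 changes were negative and the median was -0.61. Of the 7 core subunits encoded in the nucleus, 1 fell and 1 rose (14.3% each), with a median of -0.20. Supernumerary subunits were also brighter, with a median level of 3.67 against 2.07 for core subunits. Whether core and supernumerary subunits differed in change, and the part of brightness in it, was not tested.

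The largest complex I fall was in Ndufb8, a supernumerary subunit of the membrane arm. Its normalised level was 4.88, 5.73 and 6.78 in normal glands (lowest, median, highest) and 4.22, 4.81 and 5.62 in carcinomas. It fell by 1.03 ± 0.24 (SE, adjusted p = 0.00543 by limma). In 10 of 13 carcinomas it lay below every normal gland, and carcinoma 7 was the highest tumour.

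Ndufa1, a small membrane-arm subunit, ranged from 3.72 to 5.35 (median 4.32) in normal glands and from 3.1 to 4.27 (median 3.41) in carcinomas. It fell by 0.93 ± 0.23 (adjusted p = 0.00743, limma), with 9 of 13 carcinomas below all normal glands. Ndufa2, a matrix-arm subunit, fell by 0.89 ± 0.27 (adjusted p = 0.0230, limma) and Ndufb2, in the membrane arm, by 0.79 ± 0.24 (adjusted p = 0.0216, limma). Both groups overlapped for both genes: 7 of 13 carcinomas were below all normal glands for Ndufa2 and 9 of 13 for Ndufb2.

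Ndufa10, a matrix-facing subunit of the membrane arm, had the tightest fall. It measured 1.67, 1.93 and 2.40 in normal glands and 0.94, 1.42 and 1.61 in carcinomas (lowest, median, highest), with no overlap. The change was -0.59 ± 0.13 (adjusted p = 0.00310, limma). Its relative Ndufa10l1, with a probe of its own, changed by -0.24 (adjusted p = 0.401, 95% interval -0.64 to 0.16).

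The other supernumerary falls were Ndufb9 (-0.74), Ndufa6 (-0.66) and Ndufb4 (-0.61). Ndufb4 was lost without any 1 of 11 arrays, and a second probe for it, at -0.50, missed the threshold (adjusted p = 0.124 among probes). The 15 supernumerary subunits that did not pass ranged from -0.74 for Ndufs5 (adjusted p = 0.0559) to -0.17 for Ndufa9. Between them lay Ndufa5, Ndufv3, Ndufb11, Ndufb6, Ndufb5, Ndufc2, Ndufs4, Ndufb3, Ndufa11, Ndufb7, Ndufab1, Ndufb10 and Ndufa12.

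Ndufs1, a core subunit that carries several iron-sulphur clusters, went the other way. Its level was 0.02, 0.24 and 0.66 in normal glands and 0.25, 0.94 and 1.62 in carcinomas (lowest, median, highest). All 13 carcinomas lay above the normal gland median and 9 above every normal gland. It rose by 0.58 ± 0.19 (adjusted p = 0.0350, limma). The call did not hold without any 1 of 6 arrays, namely normal glands 2, 3 or 5 or carcinomas 5, 9 or 10, where the highest adjusted p was 0.0954.

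Ndufs7, the core subunit of the last iron-sulphur cluster before ubiquinone, fell by 0.58 ± 0.17 (adjusted p = 0.0221, limma). Its levels were 2.49 to 3.62 in normal glands and 2.04 to 2.95 in carcinomas. Among core subunits that did not pass, Ndufv2 changed by -0.44, Ndufs8 by -0.20, Ndufv1 by -0.12 and Ndufs3 by -0.10. For Ndufv1, which binds NADH and flavin, the 95% interval was -0.42 to 0.18.

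Of the 6 Ndufaf assembly factors, which build complex I without staying in it, 1 fell (16.7%, against 13.2% of all genes). Their median was 0.06. Ndufaf8 fell by 0.62 ± 0.20 (adjusted p = 0.0287, limma), from 1.98 to 3.04 in normal glands to 1.31 to 2.52 in carcinomas. Ndufaf4 changed by 0.67 ± 0.27 and did not pass (adjusted p = 0.0774), with levels of -1.38 to -0.30 in normal glands and -1.21 to 1.15 in carcinomas. Its 3 further probes changed by 0.20 to 0.49 and did not pass. Ndufaf3 (-0.03), Ndufaf5 (-0.02), Ndufaf7 (0.14) and Ndufaf1 (0.22) did not pass either.

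Complex II, succinate dehydrogenase, feeds electrons from the citrate cycle and pumps no protons. By limma 0 of its 4 subunits passed, against 13.2% of all genes lower and 9.73% higher. Of the 4, 1 (Sdhc, lower) had an unadjusted p under 0.05. Sdha, the flavin-bearing catalytic subunit, was at 2.01, 2.10 and 2.68 in normal glands and 1.94, 2.37 and 2.97 in carcinomas. Its change was 0.23 (adjusted p = 0.299, 95% interval -0.09 to 0.55), and the groups overlapped.

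Sdhb, the iron-sulphur subunit, changed by -0.36 (adjusted p = 0.215, 95% interval -0.78 to 0.06), with 1.85 to 2.49 in normal glands and 1.07 to 2.59 in carcinomas. The membrane anchors Sdhc and Sdhd changed by -0.44 (adjusted p = 0.0670) and -0.43 (adjusted p = 0.154). Sdhc was 1.26 to 2.34 in normal glands and 0.89 to 1.76 in carcinomas, and all 13 carcinomas were below the normal gland median. Sdhd was 2.39 to 3.89 and 2.20 to 3.53, with 2 carcinomas below every normal gland.

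**Figure D2:**
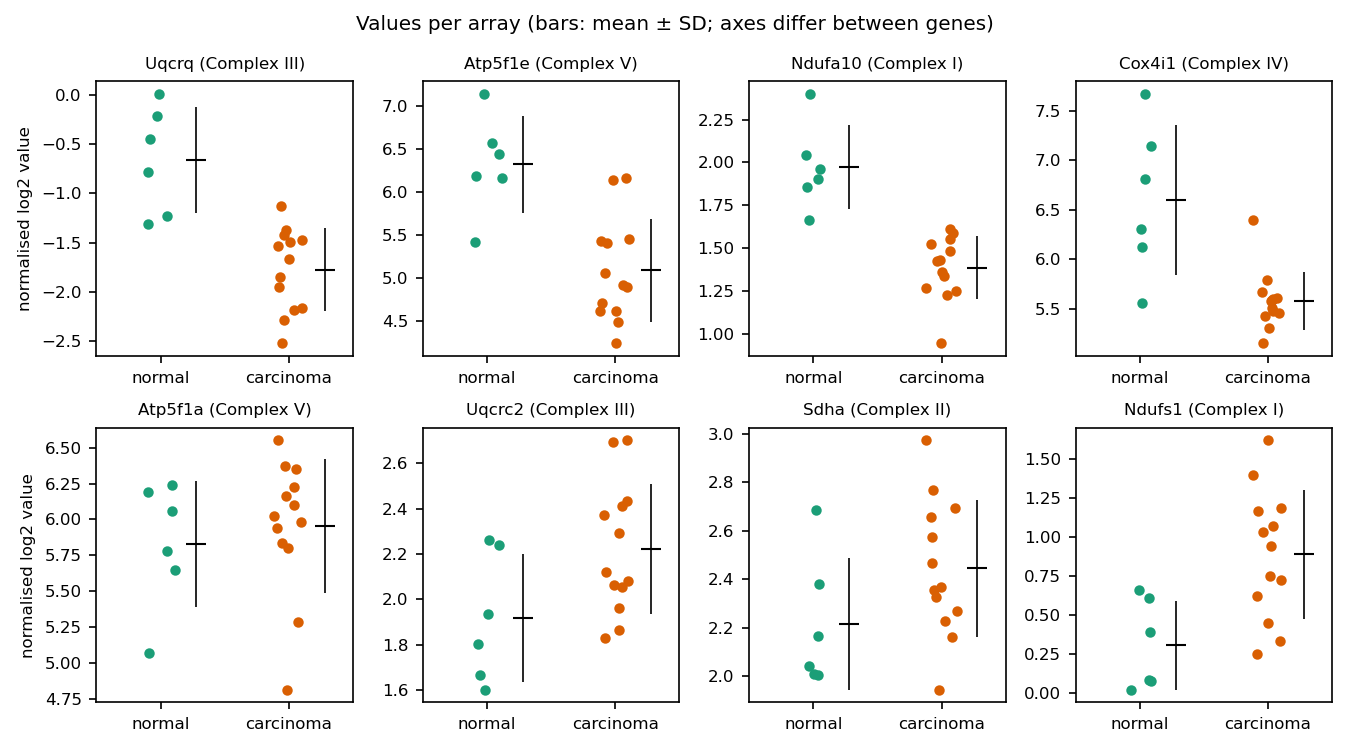
Normalised log2 values (0 is the array's 75th percentile) of 8 members on each array, 6 normal glands in green and 13 carcinomas in orange, with mean and SD as black bars and a separate axis for each gene. Uqcrq, Atp5f1e, Ndufa10 and Cox4i1 fell, Ndufs1 rose, and Atp5f1a, Uqcrc2 and Sdha did not pass.

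Complex III passes electrons from ubiquinol to cytochrome c. Of its 8 tested genes 3 fell (37.5%, against 13.2% of all genes) and 0 rose, with a median of -0.29. The 3 are small subunits. Falls numbered 1 with quantile normalization (11.4% of all genes were then lower) and 2 without normal gland 2 or without normal gland 3. Uqcrq, a small subunit also known as ubiquinone-binding protein QP-C, had values of -1.31, -0.61 and 0.01 in normal glands and -2.52, -1.66 and -1.13 in carcinomas. It fell by 1.11 ± 0.23 (adjusted p = 0.00226, limma), the smallest adjusted p of any member. In 12 of 13 carcinomas it was below every normal gland, and carcinoma 7 was the exception.

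Uqcr11, a small membrane subunit, was at 4.94, 5.92 and 6.70 in normal glands and 3.56, 4.84 and 5.72 in carcinomas. It fell by 1.17 ± 0.26 (adjusted p = 0.00353, limma). Its probes disagreed in size: the other 2, at -0.44 and -0.51, missed the threshold (adjusted p = 0.117 and 0.0824 among probes). Uqcr10, another small membrane subunit, fell by 0.70 ± 0.21 (adjusted p = 0.0212, limma). With quantile normalization Uqcr10 was at -0.11 and Uqcr11 at -0.59 (adjusted p = 0.635 and 0.0516, limma).

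The large core proteins were not among the falls. Uqcrc2 changed by 0.30 (adjusted p = 0.170, 95% interval -0.02 to 0.63), with 1.60 to 2.26 in normal glands and 1.83 to 2.70 in carcinomas, and 6 of 13 carcinomas above every normal gland. Uqcrc1 changed by 0.06 (95% interval -0.47 to 0.59). The Rieske iron-sulphur protein Uqcrfs1 (-0.24), Uqcrb (-0.34) and the hinge protein Uqcrh (-0.15) did not pass.

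Complex IV, cytochrome c oxidase, hands electrons to oxygen, and its nuclear subunits surround a core made in the mitochondrion. The median change of its 15 tested genes was -0.72, and all 15 changes were negative. Of the 15, 8 fell (53.3%, against 13.2% of all genes) and 0 rose. The number of falls was 2 with quantile normalization (11.4% of all genes were then lower) and 3 without normal gland 2 or without normal gland 3. It was 4 without normal gland 4 and 5 with slide as a block. Among 11 general subunits 7 fell with a median of -0.64. That complex IV moved more than other complexes was not tested.

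Cox4i1, the widely expressed isoform of the regulatory subunit 4, was at 5.56, 6.56 and 7.67 in normal glands and 5.15, 5.58 and 6.39 in carcinomas. It fell by 1.02 ± 0.23 (adjusted p = 0.00426, limma). All 13 carcinomas were below the normal gland median and 6 below every normal gland. With quantile normalization Cox4i1 was at -0.37 (adjusted p = 0.104, limma). The isoform Cox4i2, known from lung, changed by -0.26 (adjusted p = 0.544, 95% interval -0.84 to 0.32).

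Cox7a2l, a relative of subunit 7a that links complexes III and IV into supercomplexes, was at 4.09, 4.75 and 6.09 in normal glands and within 3.81 to 4.40 in carcinomas (median 3.96). It fell by 0.94 ± 0.21 (adjusted p = 0.00393, limma), and 10 of 13 carcinomas were below every normal gland. The general isoform Cox7a2 fell by 0.84 ± 0.21 (adjusted p = 0.00772, limma), from 3.09 to 4.92 in normal glands to 2.65 to 3.65 in carcinomas. A second probe was at -0.72 (adjusted p = 0.0503 among probes).

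Cox5a, on the matrix side, fell by 0.84 ± 0.28 (adjusted p = 0.0380, limma), with 4.26 to 5.90 in normal glands and 3.02 to 5.14 in carcinomas. The zinc-binding Cox5b fell by 0.72 (adjusted p = 0.0358, limma) and the membrane subunit Cox6c by 0.72 (adjusted p = 0.0246, limma). Cox6a1 fell by 0.64 ± 0.22 (adjusted p = 0.0435, limma) and Cox6b1 by 0.62 ± 0.22 (adjusted p = 0.0451, limma). Of 19 fits with 1 array left out, Cox6a1 passed in 6, Cox6b1 in 7 and Cox5a in 12. For Cox6a1 and for Cox6b1 2 of 13 carcinomas lay below every normal gland, and with quantile normalization Cox6a1 was at 0.016 and Cox5b at -0.15. The 3 probes of Cox6b1 all passed, at -0.53 to -0.85.

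Tissue isoforms gave wide spreads. Cox6a2, the isoform of heart and skeletal muscle, was at -4.26, -0.20, 4.34, -1.92, -2.06 and -3.63 in normal glands 1 to 6, and at -5.50 to 0.18 in carcinomas. Normal gland 3 thus stood over 4 above all others, and the change of -1.47 ± 1.15 did not pass (adjusted p = 0.386). The 17 skeletal muscle markers tested were also highest in normal gland 3, with a list score of 5.43 against -1.91 to 0.57 in the other normal glands and -2.74 to 1.75 in carcinomas, and 1 of 17 (Des) was lower in carcinomas. Cox6b2, known from testis, changed by -0.77 and did not pass (adjusted p = 0.0712). Cox8a (-0.39), Cox7b (-0.34), Cox7c (-0.25) and Ndufa4 (-0.17, now placed in complex IV) did not pass, and neither Cox8a nor Ndufa4 had an interval below 0.

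Complex V has an F1 head that makes ATP and an Fo part in the membrane, joined by stalks. Of its 15 genes 4 fell (26.7%) and 0 rose, with a median of -0.42 and a median level of 3.97. By comparison, 13.2% of all genes fell, and 22.2% of genes with a mean of at least 2. With quantile normalization 1 subunit of complex V fell and 1 rose, while 11.4% of all genes were lower. Falls of complex V numbered 2 without normal gland 2 or without normal gland 3. Among 5 F1 subunits 1 fell and the median was 0.13. Of 12 listed Fo and stalk genes 9 were on the array. Among these 9 Fo and stalk subunits 3 fell, all 9 changes were negative and the median was -0.50. The median level of the Fo and stalk subunits was 4.24, against 3.37 for F1 subunits. Whether the parts differed in change was not tested.

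Atp5f1e, the small epsilon subunit at the foot of the F1 rotor, had the largest fall of the members that passed. Its values were 5.42, 7.15, 6.57, 6.44, 6.16 and 6.19 in normal glands 1 to 6 and 4.23, 4.91 and 6.16 in carcinomas (lowest, median, highest). It fell by 1.24 ± 0.28 (adjusted p = 0.00407, limma), 2.36-fold lower. In 9 of 13 carcinomas it lay below every normal gland, and in all 13 below the normal gland median. With quantile normalization Atp5f1e was at -0.66 (adjusted p = 0.0605, limma).

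In the comparison of all samples as reported, the rest of F1 gave no call. The catalytic pair Atp5f1a and Atp5f1b changed by 0.13 (95% interval -0.34 to 0.59) and 0.15 (-0.83 to 1.13). Atp5f1b was at 0.96 to 2.67 in normal glands and 2.15 to 2.92 in carcinomas 1 to 10. In carcinomas 11, 12 and 13, whose descriptions carry letter codes, it was at 0.47, 0.10 and -0.72. The rotor subunit Atp5f1c changed by 0.25 (adjusted p = 0.599, 95% interval -0.38 to 0.88), with 1.02 to 2.35 in normal glands and 0.20 to 2.99 in carcinomas. Atp5f1d changed by -0.42 (adjusted p = 0.203).

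In the membrane part, Atp5mg, a subunit at the dimer interface, was at 4.11, 4.88 and 5.88 in normal glands and 3.27, 3.76 and 4.61 in carcinomas. It fell by 1.10 ± 0.23 (adjusted p = 0.00274, limma), and its further probe fell by 1.07. Normal gland 1 was the only normal gland within the carcinoma range. Atp5po, which holds the stalk to F1, fell by 0.70 (adjusted p = 0.0422, limma). It passed in 8 of 19 fits with 1 array left out, and with quantile normalization it was at -0.26 (adjusted p = 0.285, limma).

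The proton-carrying c-ring is encoded by several genes for 1 mature protein. Atp5mc2 fell by 0.62 ± 0.18 (adjusted p = 0.0203, limma), from 5.51 to 6.92 in normal glands to 5.21 to 6.01 in carcinomas, and its further probe fell by 0.60. With quantile normalization Atp5mc2 was at -0.032 (adjusted p = 0.887, limma). Atp5mc1 changed by -0.50 and did not pass (adjusted p = 0.143). The inhibitor Atp5if1, which stops reverse ATP cleavage, changed by -0.39 (adjusted p = 0.256, 95% interval -0.89 to 0.11). Atp5mk (-0.51), Atp5me (-0.44), Atp5pf (-0.29), Atp5pd (-0.27) and Atp5pb (-0.17) did not pass. The pseudogene Cox6c-ps1, which may share sequence with Cox6c, changed by -0.58 (adjusted p = 0.131). A dimmer probe for it was at 0.15, and dimmer probes for Ndufab1 (0.45) and Ndufs4 (0.36) also had the opposite sign to the probes used, none of them past the threshold.

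**Figure D3:**
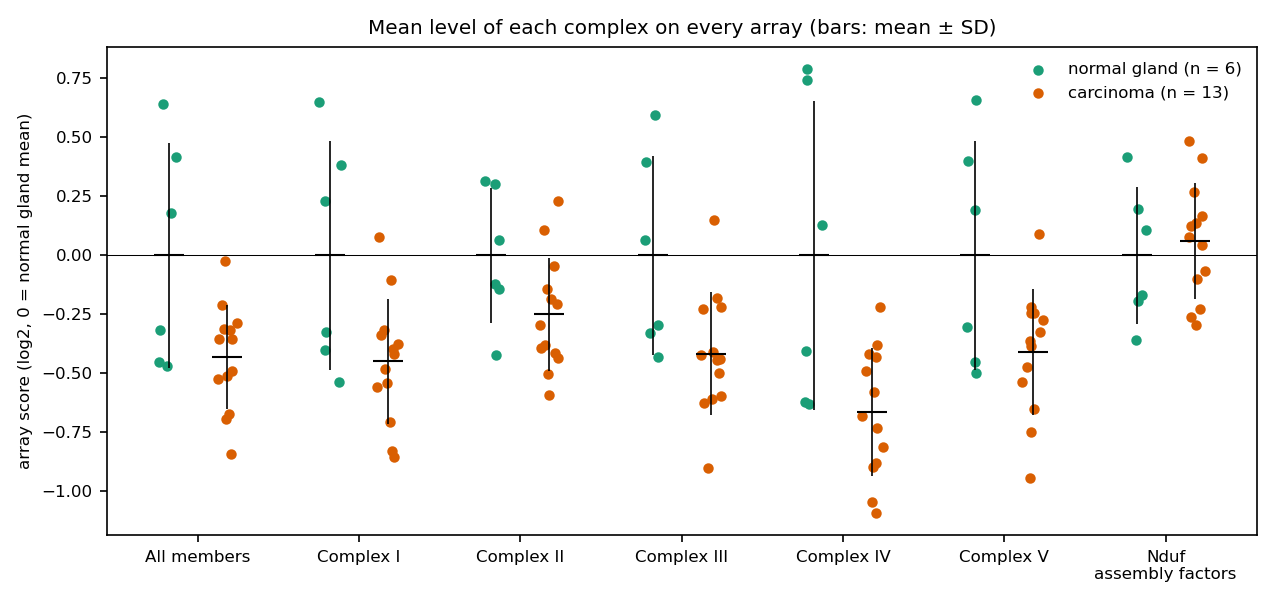
Mean level of each complex on every array: each gene is set to 0 at its normal gland mean and averaged over the complex (log2). Green points are 6 normal glands, orange points 13 carcinomas, bars mean and SD. For all members normal glands ran from -0.47 to 0.64 and carcinomas from -0.84 to -0.02.

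Normal glands differed widely among themselves, with an SD of the member score of 0.48 against 0.22 in carcinomas. The member score, the mean of each gene's distance from its normal gland mean, was 0.64, 0.42 and 0.18 in normal glands 2, 3 and 4, and -0.45, -0.32 and -0.47 in normal glands 1, 5 and 6. Carcinomas had a median of -0.36, and all 13 lay below 0. Normal glands 1, 5 and 6 lay inside the carcinoma range, and 6 of 13 carcinomas lay below every normal gland.

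Normal gland 2 was the highest normal gland for 62 of 80 members, and normal gland 6 or 1 the lowest for 36 and 32. The SD among normal glands exceeded that among carcinomas for 59 of 80 members (73.8%), against 38.4% of all genes. Among carcinomas, carcinoma 7 was the highest for 34 members and carcinoma 13 the lowest for 30. Carcinoma 7 had the dimmest tumour array (484.9 intensity units), and its basal epithelium score of -2.64 was the lowest of all arrays.

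The number of falls also depended on single normal glands, and the part of this spread in it was not tested. Without normal gland 2 it was 10 (12.5%, against 8.77% of all genes) and without normal gland 3 it was 10 (12.5%, against 8.5%). Without normal gland 4 it was 15 (18.75%, against 1523 of 12789 genes), and without normal gland 6 it was 31 (38.75%, against 1720 of 12789). Of the 26 calls, 10 passed whichever single array was left out: Ndufa1, Ndufa10, Ndufb8, Uqcr11, Uqcrq, Cox4i1, Cox7a2, Cox7a2l, Atp5f1e and Atp5mg.

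By complex, groups overlapped in every score. Complex IV ranged from -0.63 to 0.79 in normal glands and from -1.09 to -0.22 in carcinomas, with 7 carcinomas below every normal gland. Complex I ranged from -0.54 to 0.65 and from -0.86 to 0.08, complex III from -0.43 to 0.59 and from -0.90 to 0.15, and complex V from -0.50 to 0.66 and from -0.95 to 0.09. Complex II ranged from -0.42 to 0.32 and from -0.59 to 0.23, with 3 carcinomas below every normal gland. Carcinoma 13 was lowest in complexes I, III, IV and V, and carcinoma 7 was lowest in complex II while it was highest in complexes I, III and V.

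**Figure D4:**
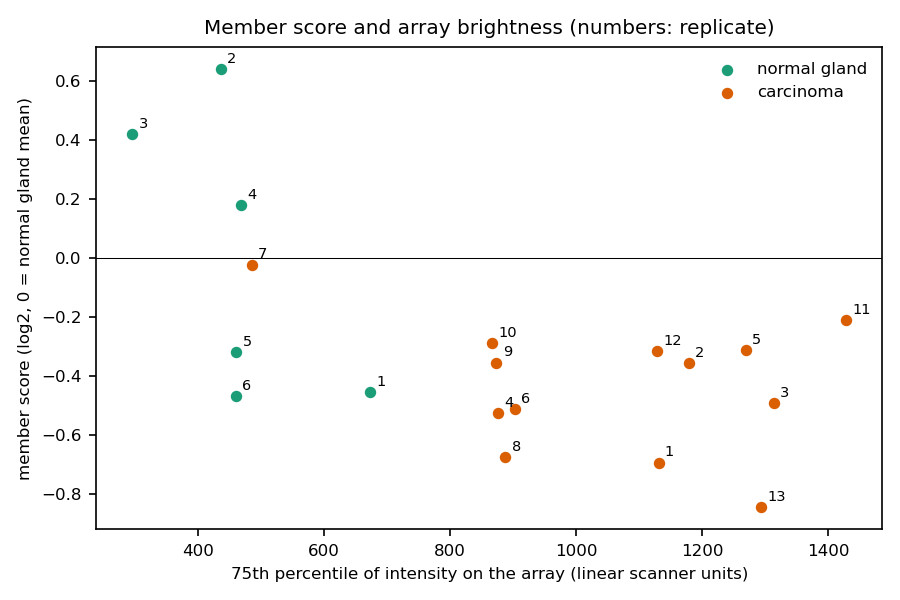
Member score (log2, 0 is the normal gland mean) against the 75th percentile of intensity on the same array (linear scanner units), numbered by replicate, normal glands green and carcinomas orange. Carcinoma 7, the dimmest tumour array, has the highest tumour score, and normal glands 2, 4, 5 and 6, at 436 to 468 units, span -0.47 to 0.64.

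Fat markers moved with the group. The adipocyte score was -0.53 to 0.76 in normal glands and -6.60 to -5.00 in carcinomas, and the ranges did not overlap. In normal glands 1 to 6 it was 0.09, 0.36, -0.46, -0.53, -0.22 and 0.76. Glands 6 and 2 had the lowest and highest member scores. The brown fat list score was highest in normal glands 2 and 3 (0.62 and 0.59) and lowest, among normal glands, in gland 4 (-0.59). Of its 8 tested genes 3 fell, while its defining gene Ucp1 was well above background on 0 of 6 normal gland and 6 of 13 carcinoma arrays. The skeletal muscle score was 0.57, 5.43 and -0.61 in normal glands 2, 3 and 4, which had the highest member scores. It was -1.86, -1.91 and -1.62 in normal glands 1, 5 and 6, and -2.74 to 1.75 in carcinomas. The part of these cell types in the falls was not tested.

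Each of the 3 slides carried arrays of normal glands and of carcinomas. The median change of the members was -0.72 within slide 1 (3 normal glands, 4 carcinomas), -0.34 within slide 2 (2 and 4) and -0.02 within slide 3 (1 and 5). By limma 2, 1 and 0 members were lower (against 4.18%, 2.09% and 0.243% of all genes), with 32, 8 and 1 lower and 1, 5 and 0 higher at an unadjusted p under 0.05. The only normal gland on slide 3 was gland 6, the lowest of all. With slide as a block 24 members were lower and 1 higher, against 1798 lower and 1402 higher of 12789 genes. In the samples whose descriptions carry number codes, without normal gland 6 and carcinomas 11, 12 and 13, 31 were lower (38.75%, against 13.9% of all genes) with a median of -0.55.

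**Figure D5:**
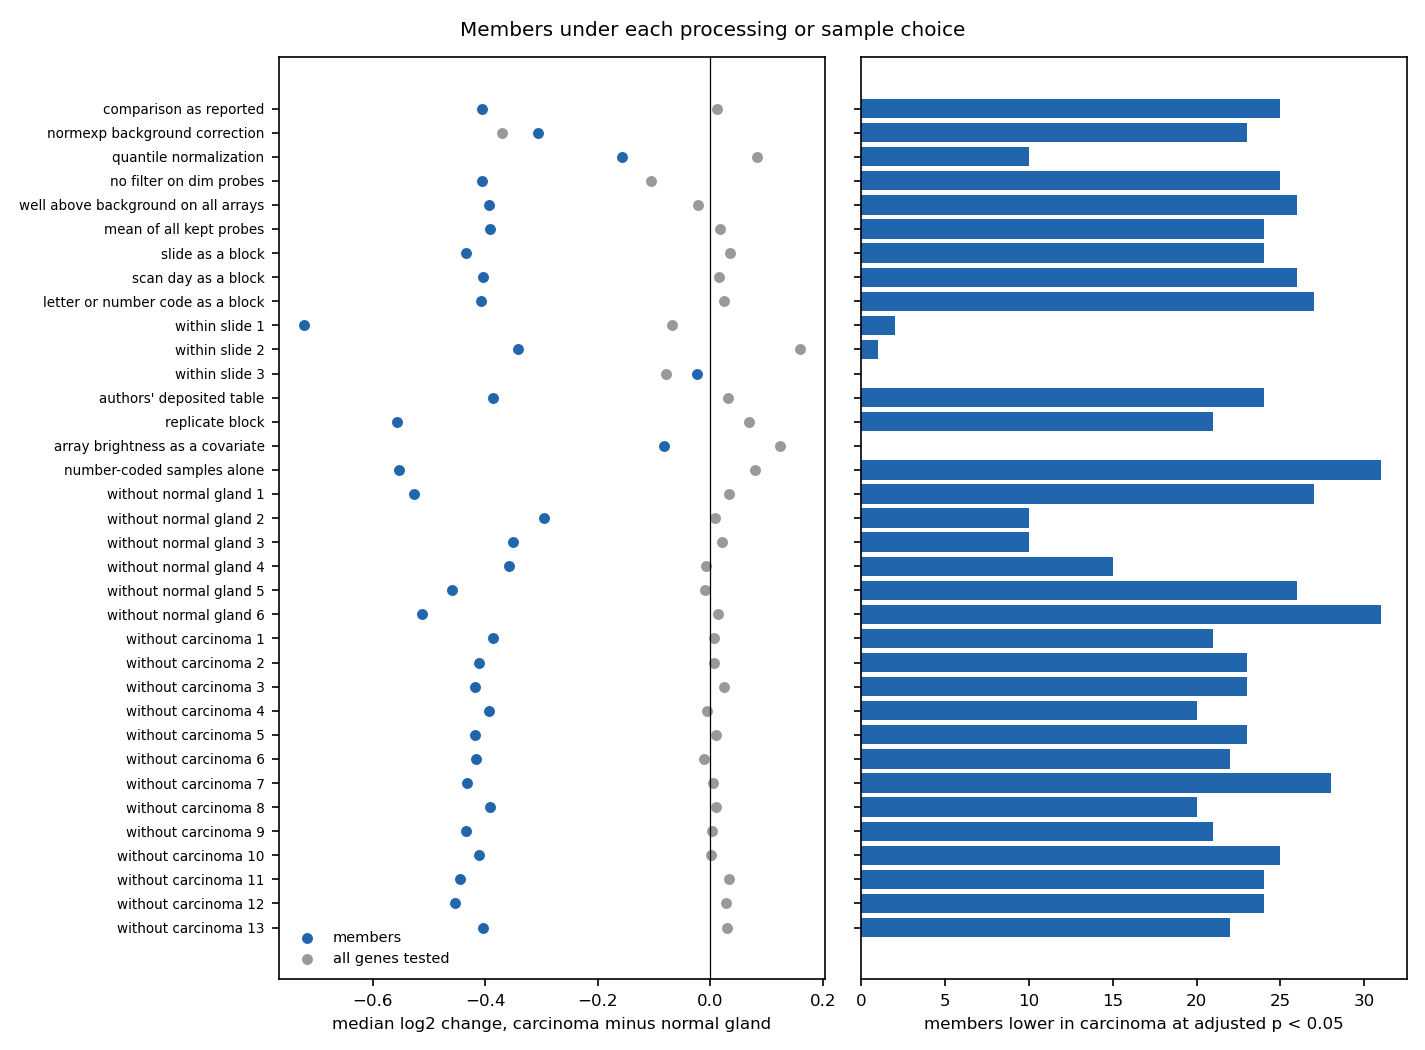
Left, median log2 change of the members (blue) and of all genes tested (grey) under each processing choice or set of samples. Right, number of members lower at an adjusted p under 0.05 by limma, which is 25 as reported, 10 with quantile normalization or without normal gland 2 or 3, and 0 with array brightness as a covariate.

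With brightness as a covariate the change of single members moved by unequal amounts while none passed by limma. Atp5f1e was at -1.33 ± 0.50 (adjusted p = 0.219) and Atp5mg at -1.22 ± 0.41 (adjusted p = 0.172), sizes close to those without it. Ndufa10 was at -0.48 ± 0.22 and Ndufs1 at 0.77 ± 0.34. Uqcr11 was at -0.08 ± 0.35 and Cox4i1 at -0.33 ± 0.37. The lowest adjusted p among the 25 falls was 0.172.

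Other genes of the pathway were read from lists of related function. Of 16 electron carrier and coenzyme Q genes, 2 fell and 1 rose, with a median of 0.01. The shares were 12.5% lower and 6.25% higher, against 13.2% and 9.73% of all genes. Coq8a, a kinase-like protein of coenzyme Q synthesis, fell by 1.49 ± 0.33 (adjusted p = 0.00322, limma) and Etfb, which brings electrons from fatty acid oxidation, by 0.78 ± 0.21 (adjusted p = 0.0106, limma). Coq4, another coenzyme Q synthesis gene, rose by 0.81 ± 0.24 (adjusted p = 0.0206, limma), but with normexp its change was -0.0097.

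Of 31 other assembly factors 5 fell and 1 rose, with a median of -0.08. That is 16.1% lower and 3.23% higher, against 13.2% and 9.73% of all genes. Sdhaf1, which protects the iron-sulphur cluster of Sdhb, was at 2.55 to 3.21 in normal glands and 1.32 to 2.06 in carcinomas, without overlap. It fell by 1.11 ± 0.14 (adjusted p = 1.63e-05, limma), and with brightness as a covariate it was at -1.27 (adjusted p = 0.00796, limma). Uqcc2, a complex III assembly factor, fell by 1.11 ± 0.26 (adjusted p = 0.00518, limma), and Cox16 (-0.74), Cox19 (-0.68) and Uqcc3 (-0.53) fell as well, 3 calls that were lost without normal gland 2 or without normal gland 3. Lrpprc, which stabilises mitochondrial messenger RNA, rose by 0.75 ± 0.17 (adjusted p = 0.00357, limma).

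Of 18 regulators of mitochondrial genes 1 fell and 2 rose, with a median of 0.25. The shares were 5.56% lower and 11.1% higher, against 13.2% and 9.73% of all genes. The receptor Esrra fell by 0.61 ± 0.21 (adjusted p = 0.0385, limma). The ETS factor Gabpa rose by 0.59 ± 0.17 (adjusted p = 0.0175, limma) and the mitochondrial RNA polymerase Polrmt by 0.52 ± 0.17 (adjusted p = 0.0350, limma). The call of Gabpa was lost with normexp (0.31, adjusted p = 0.0681, limma) and with the mean of all its probes (0.44, adjusted p = 0.0754, limma). That of Esrra was lost with quantile normalization (-0.48, adjusted p = 0.0728, limma) and that of Polrmt with slide as a block (0.48, adjusted p = 0.0546, limma). None of these 3 passed without normal gland 2 or without normal gland 3. Nrf1 changed by -0.0017 (adjusted p = 0.995), Tfam by 0.15 and Ppargc1b by 0.31, and none of them passed. The coactivator Ppargc1a was well above background on 0 normal gland and 9 carcinoma arrays, and its change of 1.18 did not pass (adjusted p = 0.117). With normexp Ppargc1a was lower, at -0.53 (adjusted p = 0.00813, limma).

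Mitochondrial genes outside the respiratory chain were read the same way. Of 18 citrate cycle genes 2 fell and 1 rose, with a median of 0.03. That is 11.1% lower and 5.56% higher, against 13.2% and 9.73% of all genes. Pc, pyruvate carboxylase, fell by 1.59 ± 0.43 (adjusted p = 0.0125, limma), Suclg1 fell by 0.57 ± 0.14 (adjusted p = 0.00692, limma), and Idh3a rose by 0.72 ± 0.19 (adjusted p = 0.0103, limma). With quantile normalization Suclg1 was at -0.26 (adjusted p = 0.171, limma). Of 11 genes of import and the outer membrane pore 0 passed by limma, with 2 lower and 2 higher at an unadjusted p under 0.05 and a median of 0.11. Citrate cycle scores were -0.20 to 0.27 in normal glands and -0.56 to 0.43 in carcinomas.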

How the data were processed

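RNA was measured on 19 arrays, 1 per sample, 6 of normal gland and 13 of carcinoma, on Agilent single-colour arrays. Per the file headers, the scanner files were made with Agilent Feature Extraction 10.7.3.1 and hold intensity per spot after background subtraction and detrending, median intensity of spot and surroundings, and flags, which are other values of 0 or 1. The authors also deposited a log2 table. Its columns equal the values used here but for a constant per array of -0.54 to -0.43, as read from the values, since the scaling is not given in the sources used here.

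Log2 intensity minus the array's 75th percentile was used. Spots flagged as uneven or outlying were left out and no spot was saturated. Spots of a probe were averaged. A probe was kept when at least 0.5 of its spots were well above background on at least 6 arrays, and the brightest kept probe stood for a gene. Probes were named by RefSeq accession, 18005 of 30367 with a symbol. The 12789 genes (86 had missing values on 1 or more arrays) were fitted with limma 3.58.1 in R 4.3.3, group as the only term, moderated variances following intensity, 2-sided, Benjamini-Hochberg over all genes, threshold 0.05. The code was tested on simulated data. The number of arrays limits precision. Normexp (offset 50) was planned on mean spot signals, and median spot signals took their place because the scanner files used here gave no mean signal column. A list score is the mean of genes centred on normal glands.

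The members and gene lists were chosen with earlier results of these data known. Named were the 12 largest changes past the threshold in each direction, the extremes of every complex, the Sdh genes, isoform pairs, c-ring genes and the inhibitor, up to 2 genes per direction and related list, and 5 regulators. Other members and Cox16, Cox19, Uqcc3 and Des were added after their values were seen. The values of 1 member are not reported here. Alternatives covered background, normalization, filters, probes, slide, scan day, sample codes, the authors' table, replicate numbers, brightness and each array left out. The number-coded subset was chosen after seeing the data. The array annotation and the promoter table rest on different rat assemblies, so genome positions are given for promoters only.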

Additional observations from a re-analysis of the deposited data

Results flagged for a closer look

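Among 35 sets of 6 normal gland values (named members, the member score and the complex scores), 0 had a gland far from the others by Dixon's test.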

How the results depend on the processing

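Of the 25 falls, all kept a negative change under normexp, with each block, in the authors' table, in number-coded samples and with any 1 array left out. These fits reuse the arrays in which the falls were picked, so a kept sign was nearly fixed in advance and gives no support of its own. With normexp the median change of all genes was itself -0.37. With quantile normalization 10 members were lower and 2 higher. By limma 2, 1 and 0 were lower within slides 1, 2 and 3 and 0 with brightness as a covariate, and 0 were higher in any of these 4 fits, with 1, 5, 0 and 6 higher at an unadjusted p under 0.05. Leaving out 1 array gave 10 to 31 lower and 0 to 2 higher members. Medians with 1 array left out were -0.53 to -0.30 for all members, -0.58 to -0.28 for complex I, -0.49 to -0.29 for II, -0.38 to -0.14 for III, -0.81 to -0.53 for IV and -0.51 to -0.30 for V. Within slide 3 they were -0.024 for all members and 0.0012, 0.11, 0.050, -0.058 and -0.060 for complexes I to V. With brightness they were -0.082 for all members and -0.12, -0.50, 0.046, -0.14 and 0.035 for complexes I to V, and within slide 1 complex III was at -0.68. With quantile normalization they were -0.16 for all members and -0.23, -0.25, -0.046, -0.32 and -0.032 for complexes I to V. Over all genes, lower genes numbered 5263 with normexp, 534, 267 and 31 within slides and 174 with brightness, and higher genes 153, 45 and 0 within slides and 11 with brightness. Leaving out 1 array gave 1087 to 1830 lower and 664 to 1440 higher genes. The causes were not tested.

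A change that passed as reported or under the alternative turned sign in 10 cases: within slide 3 Atp5mc2 (0.10), Cox5b (0.16), Cox6a1 (0.0091), Cox6b1 (0.20) and Uqcc3 (0.053), with brightness Atp5po (0.035) and Cox6a1 (0.042), with quantile Cox6a1 (0.016), and with normexp Coq4 (-0.0097) and Ppargc1a (-0.53, adjusted p = 0.00813 by limma). Among regulators, changes that passed in neither fit turned sign too: Ppargc1b was at -0.10 with normexp, -0.35 within slide 3 and -0.20 with brightness, Ppargc1a at -0.43 within slide 3 and Tfam at -0.031 within slide 1, and Nrf1, near 0, had either sign.

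Samples of the 2 groups share replicate numbers 1 to 6. Same-numbered samples did not deviate together throughout, with correlations of -0.12 to 0.24, so the numbers were not taken as pairs. With the replicate block, over 12 samples, 21 members were lower and 0 higher with a median of -0.56, and 15 of the 25 falls passed. Of all 12789 genes, 1335 were lower and 949 higher in that fit. Dim probes limit what can be seen of Ppargc1a and Ucp1, and slide 3 rests on 1 normal gland.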
